A study of Mus musculus with 32 samples.

Results

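The genes described here were 8 markers of GABAergic interneurons in mouse frontal cortex (FCtx): Gad1, Gad2, Slc32a1, Pvalb, Calb1, Calb2, Reln and Lhx6. They were taken by gene symbol from the non-normalized array table, where they had 10 probes among 25697 and made up 8 of 18138 gene symbols. Total RNA of 32 mice, 1 array each, was hybridized to Illumina bead arrays. The ethanol group held 20 mice that drank 20% ethanol for 20 days in a 2-bottle choice, drinking in the dark design, and the control group held 12 untreated mice. All mice were labelled as C57BL/6J x FVB/NJ F1 animals, and the methods describe females from both directions of that cross, without saying which mouse came from which. The tissue was the dorsal part of the most rostral 2-mm coronal section, and the dissection was described as free of olfactory bulb (OB). The arrays lay on 4 chips of 8: chips 1 and 2 carried only ethanol-treated mice, chip 4 carried only controls, and chip 3 carried 4 of each, with the ethanol-treated mice at the odd positions and the controls at the even ones.

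GABAergic interneurons are the inhibitory nerve cells of the cortex. They make GABA from glutamate through the glutamate decarboxylases, load it into synaptic vesicles through a vesicular transporter, and are divided into classes by the calcium-binding proteins and peptides they contain. The granule and periglomerular cells of the OB are GABAergic too, and they share several of these genes with cortical interneurons. Reln and Calb2 are also used outside interneurons, Reln by the mitral cells of the OB and Calb2 by several cell types there. Dlx1, a homeodomain factor of GABAergic lineages that stays on in OB interneurons, served as an OB marker here. Cortical interneurons make Dlx1 too, so its value is not specific to OB cells. Cdhr1 and Doc2g, genes of the mitral and tufted cells that project out of the OB, were a second measure with no part in GABA signalling.

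The probe sequences show what each value rests on. The pair for Gad1 covered almost the same stretch of transcript, shifted by 1 base, so that 49 of their 50 bases were shared, and the agreement of their values is not independent evidence. Their last 30 bases are given 5′ to 3′ with the bases present in both probes in capitals, followed by the last 30 bases of the Calb2 probes, which lay far apart on their transcript.
Gad1, probe ILMN_1234988: AAACCTAAGGCAATGTTTCTGAAGACCTCc
Gad1, probe ILMN_2621743: GAAACCTAAGGCAATGTTTCTGAAGACCTC
Calb2, probe ILMN_2597412: tgcttcaggcagcacgtgggctccagcgct
Calb2, probe ILMN_2827729: tgccctctccttgtgttcttgacgtgtgtg

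The Calb2 probes began at transcript positions 350 and 1298, and the table placed them on the minus strand of chromosome 8 at 112676541 to 112676590 and 112666521 to 112666570. It placed the Slc32a1 probe on the plus strand of chromosome 2 at 158441306 to 158441355, the Pvalb probe on the minus strand of chromosome 15 at 78021938 to 78021987, and the Reln probe on the minus strand of chromosome 5 at 21390389 to 21390438. The build of these coordinates is not named in the table, and they fall outside the spans of the same genes in GRCm38. Exon and UTR positions were therefore not assigned.

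Of the 8 genes, 5 could be measured. Gad1, Slc32a1, Pvalb, Calb2 and Reln were above background on all 32 arrays, at a detection p below 0.01. The probes for Gad2, the second glutamate decarboxylase, Calb1, which encodes calbindin, and Lhx6, a factor of interneurons from the medial ganglionic eminence, were above background on 0 of 32 arrays. Their lowest detection p over the arrays was 0.427 for Gad2, 0.0689 for Calb1 and 0.152 for Lhx6. These 3 genes had no usable value and were not tested. In bulk tissue a lower value can come from fewer cells of a type or from less RNA per cell, and these cannot be told apart.

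Between 9480 and 11544 probes were above background per array, with 10644 to 11544 in the ethanol group and 9480 to 11413 in the control group, and 10187 probes of 7926 genes were tested. Values are given on the log2 scale of the normalized signal, and differences are ethanol minus control.

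The question of the main comparison was which interneuron genes differed between ethanol-treated mice and controls. Gad1 and Slc32a1, which make GABA and load it into vesicles, were higher in the ethanol group at a false discovery rate (FDR) below 10%, and none of the 5 genes passed an FDR of 1%. Pvalb, Calb2 and Reln did not pass either threshold.

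Gad1 encodes the glutamate decarboxylase that makes most of the brain's GABA. Its value ran from 11.76 through a median of 12.27 to 12.83 in the ethanol group, and from 11.67 through 11.98 to 12.29 in controls. The groups overlapped, with 17 of 20 ethanol-treated mice above the control median and 8 above every control. The difference was 0.30 (SE 0.087), a 1.23-fold ratio, with a 95% interval from 0.12 to 0.48 and a limma adjusted p of 0.0141. The overlapping second probe differed by 0.27 (SE 0.079, adjusted p = 0.0158).

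Slc32a1 encodes the vesicular GABA transporter. It ran from 11.84 through 12.08 to 12.36 in ethanol-treated mice and from 11.75 through 11.97 to 12.25 in controls. Here too 17 of 20 ethanol-treated mice lay above the control median, but only 4 lay above every control. The difference was 0.12 (SE 0.051, limma adjusted p = 0.0873). This call was fragile, since leaving out 1 mouse raised the adjusted p to 0.10 or more for 16 of the 32 mice, with values up to 0.161. Those mice were A11, A19, A20, A29, A34, A39, A47, A49 and A50 of the ethanol group and C54, C55, C56, C62, C63, C65 and C66 of the controls. The Gad1 call held without any of the 32 mice, with adjusted p from 0.0060 to 0.0333.

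Pvalb encodes parvalbumin, the calcium buffer of fast-spiking basket and chandelier cells. It was the only measured member with a lower mean in the ethanol group. It ran from 11.81 through 12.04 to 12.33 in ethanol-treated mice and from 11.89 through 12.14 to 12.37 in controls. The difference of -0.074 (SE 0.054) did not pass (limma adjusted p = 0.354), and its 95% interval ran from -0.18 to 0.034.

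Calb2 encodes calretinin, found in a set of cortical interneurons and in OB granule and periglomerular cells. It varied more between mice than any other member: the deposited signal of the probe used differed 21.3-fold between the highest and the lowest array. The value ran from 9.12 through 11.32 to 12.47 in ethanol-treated mice and from 8.97 through 10.83 to 11.77 in controls. The difference of 0.54 had an SE of 0.30 and did not pass (limma adjusted p = 0.209), and the other Calb2 probe differed by 0.37 (adjusted p = 0.301).

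Reln encodes reelin, an extracellular matrix protein. It ran from 10.79 through 11.39 to 11.95 in ethanol-treated mice and from 10.58 through 11.13 to 11.61 in controls, which again overlapped. The difference of 0.18 (SE 0.10) did not pass (limma adjusted p = 0.243). The same mice stood at the ends of several members: A29 had the highest ethanol value for Slc32a1, Calb2 and Reln, C59 the highest control value for Gad1, Slc32a1, Calb2 and Reln, and C63 the lowest control value for Calb2 and Reln.

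**Figure D1:**
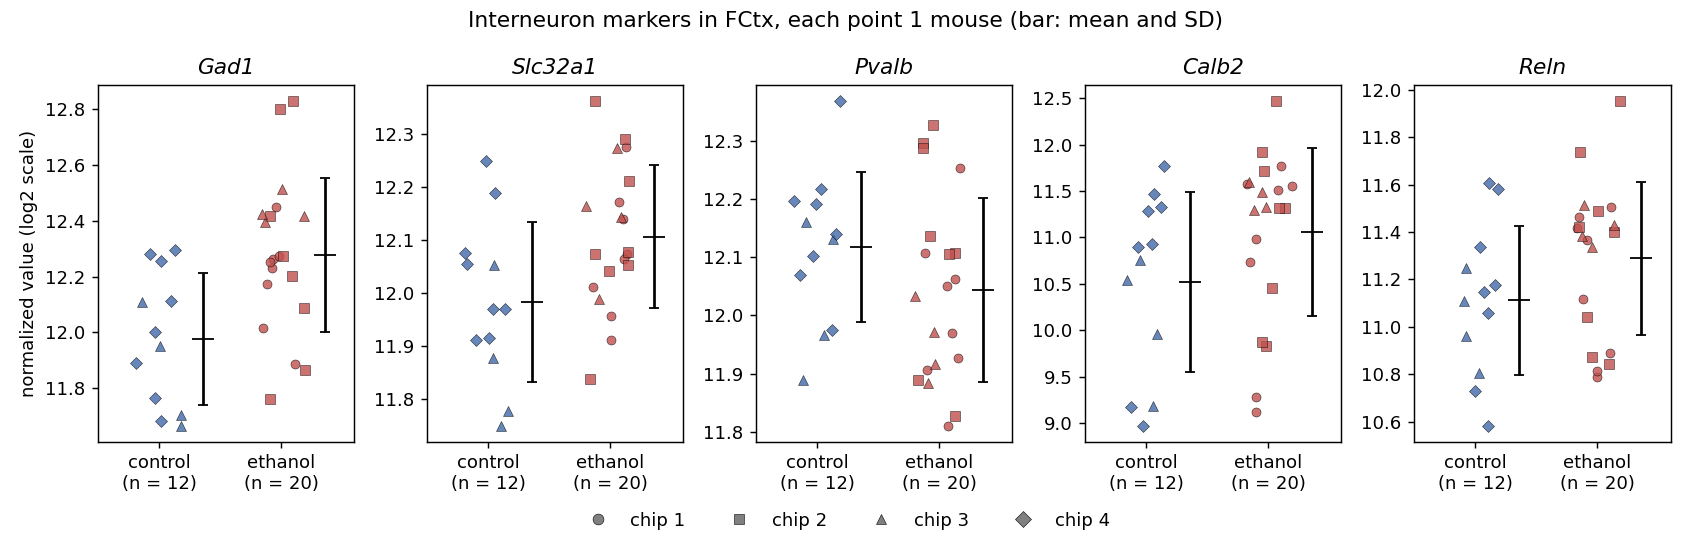
Normalized values (log2 scale, each panel with its own axis that does not start at 0) of the 5 measured interneuron genes in 12 control and 20 ethanol-treated mice, 1 point per mouse, with the chip given by the symbol and the mean and SD by the bar. The groups overlap for every gene, and Calb2 covers the widest range, from 8.97 to 12.47.

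The 0 of 5 members called at an FDR of 1% stood beside 7.82% of all tested genes, and 2 of the 5 had an unadjusted p below 0.05. The 2 of 5 called at 10% stood beside 24.6% of all tested genes, with 10.3% of all tested genes called higher in the ethanol group. Of all genes called at 10%, 41.7% were higher in the ethanol group, and 83.0% were when arrays were scaled to a common median instead of quantile normalized. The median difference of the 5 members was 0.18, beside -0.01 over all tested genes.

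Of 13 tested genes of a list of further interneuron markers, 1 rose and 2 fell at an FDR of 10%, a share close to the 24.6% over all tested genes. None passed 1%, and the median difference was -0.01. Nxph1, a neurexin ligand of interneurons, rose by 0.13 (limma adjusted p = 0.0516). Cort, the peptide cortistatin, fell by 0.21 (adjusted p = 0.0263), and Cox6a2, a mitochondrial subunit found in parvalbumin cells, fell by 0.17 (adjusted p = 0.0614). Sst, Vip and Npy, the peptides that define major cortical interneuron classes, were looked at after their values were known. They differed by -0.01, -0.13 and -0.08, and none passed 10% (adjusted p = 0.906, 0.110 and 0.260). Under median scaling 0 of the 13 genes passed 10%, and Sst differed by 0.03.

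Among genes that carry, take up or break down GABA or anchor its receptors, Slc6a11, a transporter of astrocytes, fell by 0.24 (limma adjusted p = 0.0872). Abat, the transaminase that degrades GABA, differed by 0.10 (adjusted p = 0.132). Under median scaling Slc6a11 was not called (adjusted p = 0.348).

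Of 8 tested genes of cortical excitatory neurons, 4 were lower in the ethanol group at an FDR of 1%, beside 4.82% of all tested genes. Tbr1 fell by 0.36, Slc17a7, the vesicular glutamate transporter of cortex, fell by 0.25, and Fezf2 fell by 0.18 (limma adjusted p = 3.1e-04, 0.0048 and 0.0070). Neurod2 and Rorb of the same list differed by 0.11 and 0.07 and did not pass (adjusted p = 0.370 and 0.512). Under median scaling none of the 8 genes passed 1%, and 2 of 8, Tbr1 and Slc17a7, passed 10% (adjusted p = 0.0501 and 0.0721). In the striatum list, a check on deeper tissue, 0 of 3 tested genes passed 10% in the limma test: Ppp1r1b differed by -0.09, Drd1a by 0.05 and Rgs9 by -0.03, with unadjusted p of 0.267, 0.429 and 0.781. In the oligodendrocyte list, 1 of 10 passed: Cldn11 fell by 0.20 (adjusted p = 0.0533, and 0.410 under median scaling), while Mog differed by -0.23 (adjusted p = 0.133).

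Chip 3 was the only chip that carried both groups, and there 4 of the 5 members were called at an FDR of 10%, beside 15.9% of all tested genes. Gad1 was 12.40, 12.42, 12.51 and 12.43 in the ethanol-treated mice A46, A47, A49 and A50 and 11.95, 11.67, 12.11 and 11.70 in the controls C52, C54, C55 and C56. The groups did not overlap, and the difference was 0.58 (SE 0.091, limma adjusted p = 0.0017). Calb2 was 11.33, 11.49, 11.60 and 11.30 in the same ethanol-treated mice and 10.54, 9.18, 10.76 and 9.96 in the controls. The difference of 1.32 (SE 0.22, adjusted p = 0.0022) came with control values that were far more scattered than those of the ethanol-treated mice.

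Reln was 11.38, 11.34, 11.51 and 11.43 in these ethanol-treated mice and 11.11, 10.96, 11.25 and 10.80 in the controls, with no overlap and a difference of 0.38 (SE 0.089, limma adjusted p = 0.0127). Slc32a1 was 11.99, 12.16, 12.27 and 12.14 against 12.05, 11.75, 11.88 and 11.78, where the groups overlapped and the difference was 0.28 (SE 0.084, adjusted p = 0.0456). Pvalb was 11.97, 12.03, 11.88 and 11.92 against 12.13, 12.16, 11.89 and 11.97, and its difference of -0.09 did not pass (adjusted p = 0.521). For Gad1, Calb2 and Reln the exact two-sided permutation p on this chip was 0.0286, the smallest that 4 mice against 4 can give. The share of all tested genes whose groups did not overlap on this chip was not computed. Whether the lack of overlap is particular to these members therefore cannot be said. Leaving out A47, A49, C54 or C56 ended the Slc32a1 call (adjusted p from 0.101 to 0.129) and no other.

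Genes of other cell types moved on that chip as well, and their part in the member differences was not tested. Dlx1 was 9.63, 9.89, 9.92 and 9.82 in the ethanol-treated mice and 9.34, 8.89, 9.31 and 9.04 in the controls, and Cdhr1 differed by 1.59 between these groups. Neither overlapped (exact permutation p = 0.0286 for both), and odd against even position cannot be told apart from treatment on this chip. Of the 10 tested oligodendrocyte genes, 7 were called at an FDR of 10%, beside 15.9% of all tested genes. All 10 had lower means in these ethanol-treated mice. Their mean level ran from 9.94 to 10.16 in the ethanol-treated mice and from 10.07 to 10.85 in the controls, and Opalin and Mog fell by 0.64 and 0.61 (limma adjusted p = 0.0277 and 0.0105). Of the 8 excitatory neuron genes, 3 were called, all lower: Tbr1 fell by 0.55, Slc17a7 by 0.46 and Camk2a by 0.29. The 13 further interneuron genes had 0 calls there, beside the same 15.9% of all tested genes, with a median difference of 0.03.

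On the other chips, where each chip held 1 group, none of the 5 members was called at an FDR of 10%, beside 30.9% of all tested genes. No member had an unadjusted p below 0.05 there, and Gad1 differed by 0.20 (SE 0.11, limma adjusted p = 0.174). Positions could be compared within these 3 chips with treatment held constant. Gad1 was 0.26 lower at even positions, a log2 difference of -0.26 (SE 0.090, adjusted p = 0.0495), and was the only member called at 10%, beside 20.1% of all tested genes. At an FDR of 1% no member was called, beside 2.84%, while Gad1, Calb2 and Reln had an unadjusted p below 0.05. Calb2 differed by -0.76 and Reln by -0.27 between even and odd positions (adjusted p = 0.120 and 0.122). The chips were not alike in this. Even minus odd, Gad1 differed by 0.04 on chip 1, -0.44 on chip 2 and -0.40 on chip 4, and Calb2 by 0.05, -0.85 and -1.47. Dlx1 had the same signs, at 0.15, -0.71 and -0.60. With chip and odd or even position both in the fit, the treatment difference of Gad1 was 0.32 with a wider SE of 0.17 (adjusted p = 0.577). In that fit 0 of 5 members were called, beside 0.0757% of all tested genes, and none had an unadjusted p below 0.05.

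**Figure D2:**
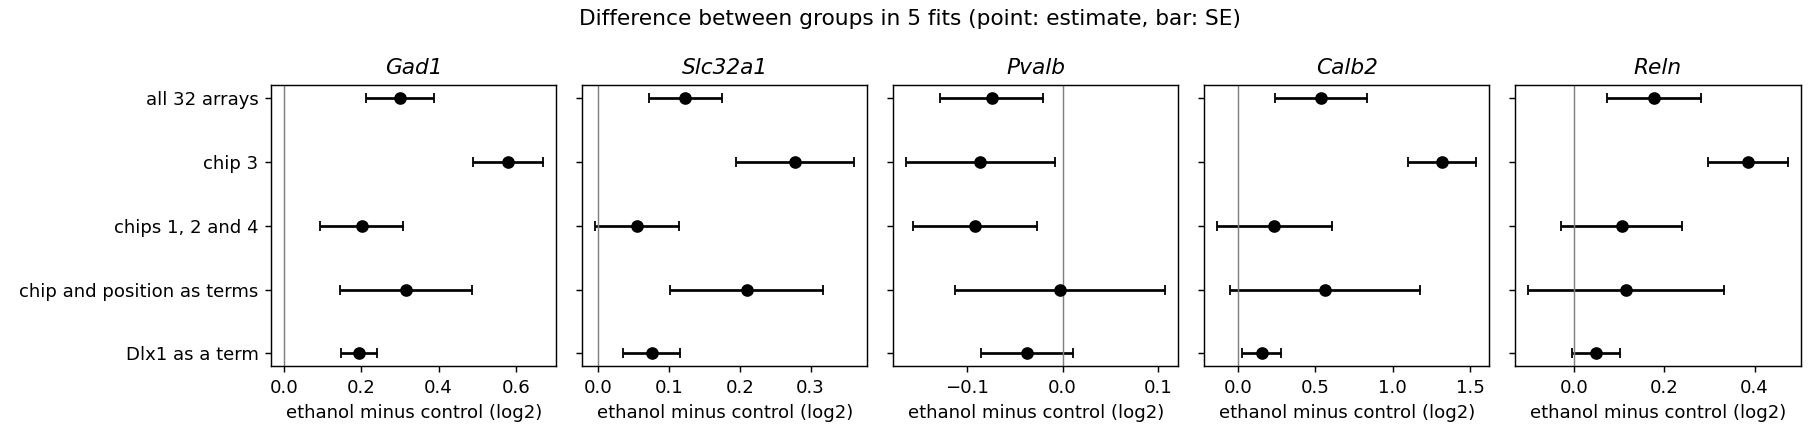
Ethanol minus control (log2, each panel with its own axis) for the 5 measured interneuron genes in 5 fits, with the estimate as the point and its SE as the bar. Gad1 stays between 0.19 and 0.58, and Calb2 ranges from 0.15 with Dlx1 as a term to 1.32 on chip 3.

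The second question was how the interneuron genes related to OB markers among mice of the same group. Although the bulb was to be left out, OB genes were measurable in both groups and covered a wide range. Cdhr1 ran from 7.55 through 10.30 to 11.63 in ethanol-treated mice and from 7.25 through 9.56 to 10.93 in controls. Dlx1 ran from 8.86 through 9.77 to 10.89 and from 8.89 through 9.42 to 10.36. Neither differed between the groups at an FDR of 10% (limma adjusted p = 0.357 for Cdhr1 and 0.348 for Dlx1), and Doc2g differed by 0.30 (adjusted p = 0.309). Of the remaining mitral and tufted cell genes, Eomes was above background on 8 arrays, Tbx21 on 1 and Lhx1 on 0.

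Within groups, 4 of the 5 members rose with Dlx1 at an FDR of 1%, where 2.16% of all tested genes rose and 0.391% fell. Calb2 rose by 1.71 (SE 0.12) per unit of Dlx1, Reln by 0.58 (SE 0.053), Gad1 by 0.48 (SE 0.045) and Slc32a1 by 0.21 (SE 0.039), with limma adjusted p of 2.2e-13, 1.4e-10, 2.4e-10 and 3.9e-04. Pvalb went the other way, with a slope of -0.17 (SE 0.047, adjusted p = 0.0270) that missed 1%, and under median scaling its slope was 0.03 (adjusted p = 0.790). That scaling moved the median slope of all tested genes from 0.01 to 0.12, so that Pvalb lay below the median gene under both. With chip and odd or even position as terms, the Pvalb slope was -0.22 and passed 1% (adjusted p = 0.0020), as did those of the other 4 members.

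The relation was positive in each group for those 4 genes. In the 20 ethanol-treated mice, Pearson's r with Dlx1 was 0.935 for Calb2, 0.918 for Gad1, 0.913 for Reln and 0.709 for Slc32a1, and Spearman's rho was 0.956, 0.875, 0.917 and 0.762. The permutation p was 1e-05 for Calb2, Gad1 and Reln, the smallest that 100000 resamples can give, for both coefficients, and for Slc32a1 it was 5.2e-04 for r and 2.1e-04 for rho. In the 12 controls r was 0.890, 0.861, 0.857 and 0.833 and rho was 0.888, 0.867, 0.839 and 0.883 in the same order, with permutation p from 1.5e-04 to 0.0012.

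Without the 2 mice whose Dlx1 lay farthest from the group median, r was 0.927, 0.911, 0.865 and 0.621 in the ethanol group and 0.871, 0.779, 0.716 and 0.737 in controls, again in that order. Within chips 1, 2 and 4, with 8 mice each, r with Dlx1 ran from 0.913 to 0.966 for Calb2, from 0.866 to 0.984 for Gad1, from 0.921 to 0.955 for Reln and from 0.695 to 0.768 for Slc32a1. All 4 relations kept their sign within each of these chips. A total of 20 such relations were computed, for 5 genes, both groups and both OB measures.

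For Pvalb the relation was negative in ethanol-treated mice, with r of -0.694 and rho of -0.720 (permutation p = 6.4e-04 and 6.3e-04). In controls r was -0.213 and rho -0.217 (permutation p = 0.51 and 0.50), and r was 0.018 without the 2 farthest mice. Within chips it ran from -0.844 to -0.740, chip 4 with its 8 controls included. The slopes on Dlx1 of the ethanol and control groups did not differ at an FDR of 10% for any of the 5 members (limma adjusted p from 0.503 to 0.957, and no unadjusted p below 0.05), beside 0.656% of all tested genes.

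**Figure D3:**
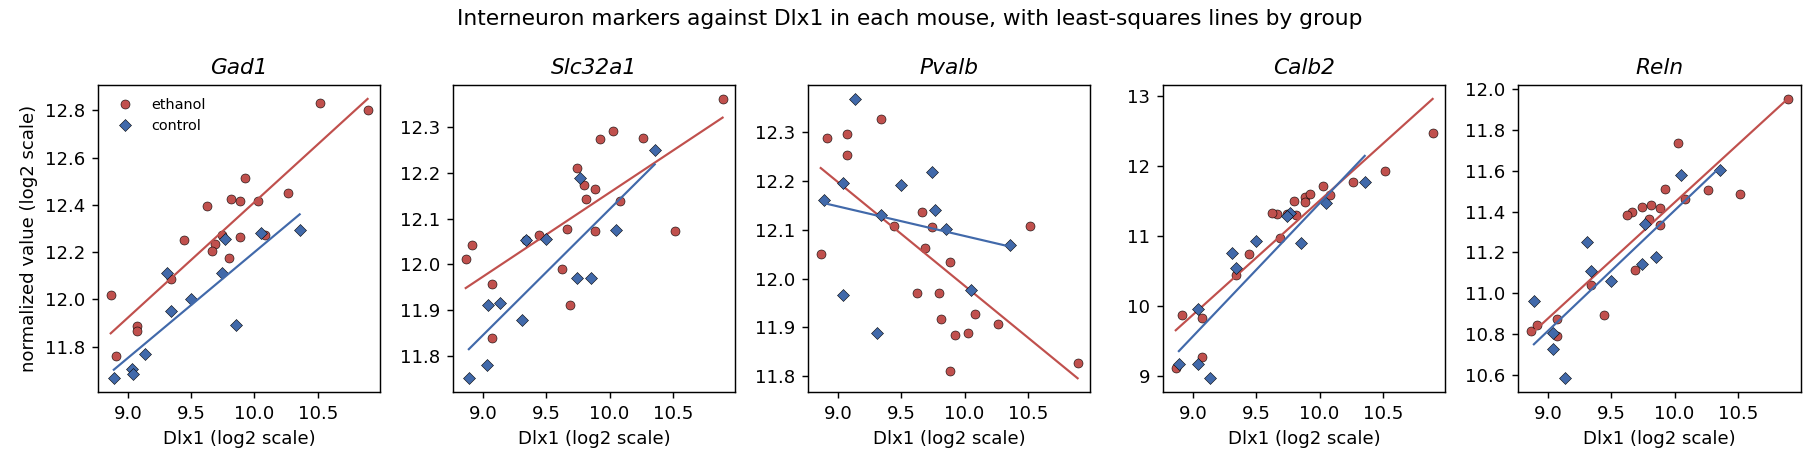
Normalized value of each measured interneuron gene against Dlx1 (both log2 scale, axes not starting at 0), 1 point per mouse, with a least-squares line for the 20 ethanol-treated mice and one for the 12 controls. Calb2, Reln, Gad1 and Slc32a1 rise with Dlx1 in both groups, and Pvalb has a falling line in both, with r of -0.694 and -0.213 (under median scaling its slope over both groups is 0.03).

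The mitral and tufted cell genes gave a similar order. Against the mean standardized value of Cdhr1 and Doc2g, all 5 members passed an FDR of 1%, beside 2.08% of all tested genes. The slope was 0.92 (SE 0.036) for Calb2, 0.31 (SE 0.021) for Reln, 0.23 (SE 0.025) for Gad1 and 0.11 (SE 0.019) for Slc32a1. Pvalb had a slope of -0.10 (SE 0.023, limma adjusted p = 0.0064), which under median scaling was -0.04 (adjusted p = 0.557). In both groups r with this measure was highest for Calb2, at 0.970 in ethanol-treated mice and 0.984 in controls.

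The further interneuron genes had smaller slopes on Dlx1 than Calb2, Reln, Gad1 and Slc32a1. Of the 13 interneuron genes 0 passed an FDR of 1% for a slope on Dlx1. This is close to the shares over all tested genes, of which 2.16% rose and 0.391% fell. The median slope of the 13 genes was -0.00264, beside 0.48 for the 5 members and 0.01 for all tested genes. Sst had a slope of -0.07, Npy of -0.04 and Vip of -0.00264, and under median scaling these were 0.10, 0.11 and 0.15, none of them passing and none far from the median of 0.12 over all genes. Under that scaling 1 of the 13 rose at 1%, the potassium channel gene Kcnc1, by 0.30 (limma adjusted p = 4.3e-04). Quantile normalized, the Kcnc1 slope was 0.17 (adjusted p = 0.0173). Of 5 tested OB interneuron genes besides Dlx1, 4 rose with it: Gng4, a G protein subunit, by 1.03, and Sp8, Th and Meis2, named after their values were seen, by 0.52, 0.51 and 0.40. The exception was Etv1, with a slope of -0.14 (limma adjusted p = 0.196). Etv1 was higher in the ethanol group by 0.25 (adjusted p = 0.0108), and Gng4 differed by 0.38 (adjusted p = 0.141). Of the 6 GABA handling genes, Slc6a11 alone rose with Dlx1, by 0.40 (adjusted p = 7.7e-04). Under median scaling 4 of the 6 did, where the median slope over all tested genes was 0.12. The share of all tested genes that rose under that scaling is not given here. Neither this count nor that of the 13 interneuron genes can therefore be set against it.

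**Figure D4:**
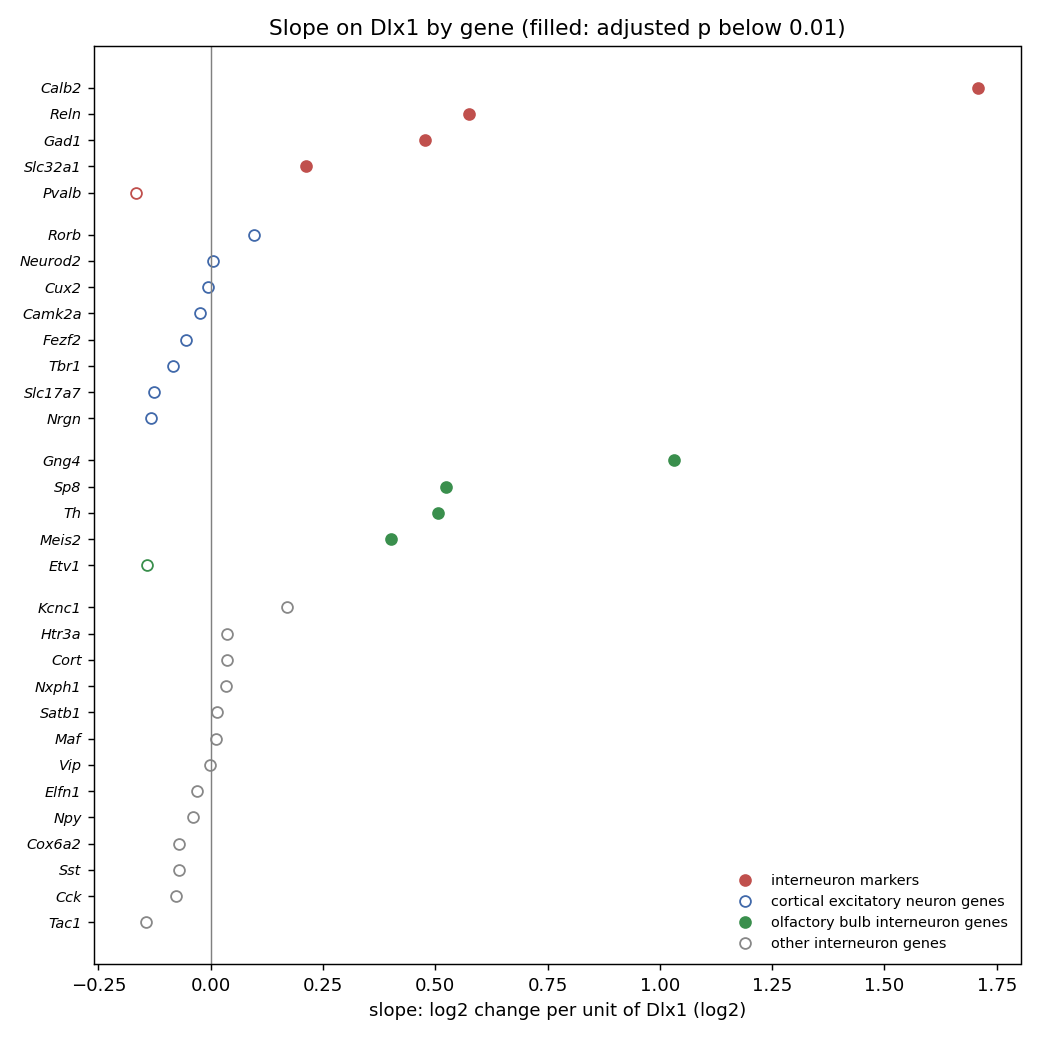
Slope on Dlx1 (log2 change per log2 unit of Dlx1, group as a term, 32 mice) for the 5 measured interneuron markers and for the tested genes of 3 lists, filled where the limma adjusted p was below 0.01. Calb2 has a slope of 1.71, and Sst, Npy and Vip lie between -0.07 and 0 (between 0.10 and 0.15 under median scaling).

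The genes most alike to each member were ranked by Pearson's r over the 32 arrays centred within group, as a description across all tested genes. For Gad1 they were Dlx1 (0.90), Pcdh20 (0.89) and Scgn (0.88), the last encoding secretagogin. For Calb2 they were Cdhr1 (0.98), Doc2g (0.94) and Trh (0.94), and for Reln they were Doc2g (0.94), Cacng5 (0.93) and Cdhr1 (0.93). For Slc32a1 they were Myh8 (0.82), Doc2g (0.81) and Map3k1 (0.77). Pvalb stood apart with Fkbp2 (0.72), Dusp28 (0.71) and Fbxw5 (0.70), and Dlx1 ranked 7827 among the 7925 other genes for it. Centred within chip and position instead, Pvalb had Ccl21a (0.76), Eef2 (0.74) and Vxn (0.73). In that ranking Ptpro replaced Pcdh20 for Gad1, Hs3st1 replaced Map3k1 for Slc32a1, and Dlx1 replaced Cdhr1 for Reln. Among the members, centred within group, Calb2 and Reln were most alike (0.92). Pvalb was negatively related to Reln (-0.69), Calb2 (-0.61), Gad1 (-0.57) and Slc32a1 (-0.42). These values are quantile normalized, and under median scaling the Pvalb slope on Dlx1 was 0.03. The overlapping Gad1 probes correlated at 0.69 and the Calb2 probes at 0.97.

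With Dlx1 as a term in the comparison of ethanol and control mice, 1 of 5 members was called at an FDR of 10%, beside 25.9% of all tested genes. The Gad1 difference was 0.19 (SE 0.045), smaller than the 0.30 without the term but with a smaller SE, and passed 1% (limma adjusted p = 0.0025). Slc32a1 then differed by 0.08 (adjusted p = 0.181), Calb2 by 0.15 (adjusted p = 0.420), Reln by 0.05 (adjusted p = 0.565) and Pvalb by -0.04 (adjusted p = 0.631). With the mitral and tufted cell measure in place of Dlx1, Gad1 differed by 0.20 (adjusted p = 0.0061). On chips 1, 2 and 4 with Dlx1 as a term, a fit added after the data were seen, Gad1 differed by 0.19 (adjusted p = 0.0070). On these chips treatment cannot be told apart from chip, and the share of all tested genes called in this fit is not given here. With chip, position and Dlx1 all as terms, added likewise, Gad1 differed by 0.19 with an SE of 0.090 and was not called (adjusted p = 0.425).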

How the data were processed

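Per the labels, RNA was amplified to biotinylated cRNA, and the submitters' processing notes name lumi and limma. The deposited table holds, per probe and array, the mean bead intensity without normalization, its detection p-value, the bead count and the standard error of the mean. Member probes had 18 to 59 beads per array (median 37), and the number of arrays limits the precision. Intensities were variance-stabilized with the bead standard errors, put on a log2 scale and quantile normalized over all probes. Probes with a detection p below 0.01 on at least 24 of 32 arrays were tested with limma (version 3.58.1 in R 4.3.3), with Benjamini-Hochberg adjustment over 10187 probes. The brightest tested probe stood for a gene. Correlations used permutation tests with 100000 resamples (numpy 2.4.6, scipy 1.17.1). The steps were tested on simulated data. The members and gene lists were chosen with earlier results of these data known. Named besides members and Dlx1 were the 3 genes most alike to each member and the 3 with the lowest p of each list, of which some are not reported here. The alternatives were other transforms, scalings and filters, chip, position or OB terms, and leaving out arrays.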

Additional observations from a re-analysis of the deposited data

How the results depend on the processing

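At an FDR of 10%, 2 interneuron genes were called, Gad1 and Slc32a1. The count was 1 with chip as a random block, with position as a term, with array weights, with Dlx1 or the mitral and tufted cell measure as a term, with normexp background, with median scaling, with all probes and no detection filter, and on chips 1, 2 and 4 with Dlx1. It was 0 on chips 1, 2 and 4 alone and with chip and position as terms, with or without Dlx1. Leaving out each of the 32 arrays gave 1 to 2. For most of these alternatives the share of all tested genes called is not given here. At an FDR of 1% the count of 0 became 1 with Dlx1 or the mitral and tufted cell measure as a term and on chips 1, 2 and 4 with Dlx1. The share of all tested genes called at 1% in these fits is not given here, so this count cannot be set against it. Leaving out each of the 32 arrays gave 0 to 1 at that rate, the 1 being Gad1 without A13, A41, A45, C57 or C59 (adjusted p from 0.0060 to 0.0091). With chip and position as terms, 5 instead of 4 genes had a slope on Dlx1, Pvalb added. On chip 3, leaving out each array gave 3 to 4. With chip, position and Dlx1 as terms, the differences of Pvalb and Reln reversed to 0.059 and -0.053, neither called. The Pvalb slope on Dlx1 reversed to 0.028 under median scaling. The Calb2, Reln, Gad1 and Slc32a1 slopes passed 1% in all 4 alternatives tried for Dlx1. Median scaling changed the share of genes called higher in the ethanol group at 10% from 41.7% to 83.0%. The fits with both Dlx1 and chip terms, those on chips 1, 2 and 4 with Dlx1, the removal of each of the 32 arrays and the median-scaled slope on the mitral and tufted cell measure were chosen after seeing the data. No paired analysis was possible because the ethanol and control groups share no mouse number. The causes of these changes were not tested.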
